A study of Mus musculus with 8 samples.

Results

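The 8 genes described here encode proteins that bend, cut and recycle membrane: the EHD proteins Ehd1, Ehd2, Ehd3 and Ehd4, the dynamins Dnm1 and Dnm2, and the epsins Epn1 and Epn2. They were taken by gene symbol from the lines of the deposited count table that held a count for all 8 libraries, which gave 8 of 8 genes among 17326 gene lines. The rule that picks them reads symbols and not levels, although the genes were proposed with earlier results of these data known. The libraries came from mouse kidney cells sorted by fluorescence, made from polyadenylated RNA, and fell into 4 groups of 2: endothelium of EMCN+/+ animals (wild-type endothelium), endothelium of EMCN-/- animals (knockout endothelium), podocytes of EMCN+/+ animals (wild-type podocytes) and podocytes of EMCN-/- animals (knockout podocytes). The series' design text places the sorted cells in the glomerulus, the filtering unit of the kidney. Emcn encodes endomucin, a sialomucin of the endothelial surface coat, and the series' title names loss of this coat component and glomerular impairment as its question. Strain, age, sex, the markers used for sorting, the deleted part of Emcn and the cells that lost it are not given in the sources used here. Nor do the labels say that the libraries of a group came from separate animals, so the p-values measure only the spread between these libraries, which may be technical.

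Cells take up surface receptors by folding membrane inward and pinching it off. Epsins bind membrane lipid, clathrin and ubiquitin-tagged cargo at the coated pit, and in endothelium they are known for the uptake of the VEGF receptor encoded by Kdr. Dynamins are GTPases that wrap and cut the neck of the vesicle. Dnm2 is made in most cells and Dnm1 is best known from neurons, and dynamin is also known for regulating actin in podocyte foot processes. EHD proteins are ATPases that tubulate membrane. EHD1, EHD3 and EHD4 act mainly at endosomes, where cargo is sorted and returned to the surface, while EHD2 sits at the neck of caveolae. In the kidney, EHD3 is known as a protein of glomerular endothelium, and mice that lack Ehd3 together with Ehd4 are known to develop a thrombotic disease of the glomerulus.

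Complete lines held between 10478956 and 17386042 counts per library. The 8 genes together took 0.342% to 0.560% of them in the endothelial libraries and 0.0887% to 0.139% in the podocyte libraries. Ehd3 alone gave 42425 of their 60934 counts in replicate 2 of wild-type endothelium, and 4731 of 24184 in replicate 2 of wild-type podocytes. All 8 were among the 16477 genes that passed the low-count filter. Emcn itself, in CPM (counts relative to the TMM-scaled library total), stood at 1972 and 1828 in wild-type endothelium, 173 and 179 in knockout endothelium, 74.1 and 35.9 in wild-type podocytes, and 5.59 and 4.94 in knockout podocytes. It fell by 3.43 (SE 0.35) on the log2 scale in knockout endothelium, with an edgeR adjusted p of 0.0205. The 9 endothelial markers, among them Pecam1, Cdh5 and Kdr, summed to 6437 to 8263 CPM in endothelial libraries and to 379 to 438 CPM in podocyte libraries. The 4 podocyte markers used (Podxl, Synpo, Wt1 and Cdkn1c) summed to 1041 to 1945 CPM in endothelial libraries and 7053 to 15333 CPM in podocyte libraries. Summed tubule markers (5 of 9 measured) ran from 4366 to 12010 CPM in wild-type endothelium, 2023 to 4083 CPM in knockout endothelium, 2676 to 7610 CPM in wild-type podocytes and 3637 to 6255 CPM in knockout podocytes. Across the 8 libraries mural and mesangial markers (4 of 7) from 206 to 790 CPM, neural markers (4 of 5) from 27.5 to 115 CPM, and immune markers (4 of 7) from 9.96 to 46.1 CPM. No marker was at 0 in both libraries of a group. The defining podocyte gene Nphs1 was not analysed here. In a principal component analysis the first component (47.2% of the variance) separated the cell types, and on the second (18.6%) replicate 3 of wild-type endothelium stood at 84.8, against -45.8 to 33.8 for the other 7 libraries. Values without that library are given with the comparisons that use wild-type endothelium.

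Ehd3 was the most abundant of the 8 genes in endothelium and far lower in podocytes, and Ehd4 was higher in endothelium by a smaller factor. Ehd2 did not pass the test between cell types in either genotype, and Ehd1 lay at similar values in all 4 groups. No EHD gene passed the test between genotypes.

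Ehd3, whose product acts in transport from early endosomes to the recycling compartment, lies on the plus strand of chromosome 17 from 73804134 to 73832094 (GRCm38). Its level was 3224 and 2815 CPM in wild-type endothelium, 2918 and 3146 CPM in knockout endothelium, 307 and 216 CPM in wild-type podocytes, and 193 and 125 CPM in knockout podocytes. All 4 endothelial libraries lay above all 4 podocyte libraries, the 2 endothelial groups overlapped, and both knockout podocyte libraries lay below both wild-type ones. The endothelium to podocyte ratio was 11.6-fold in wild type (log2 fold change 3.53, SE 0.34, edgeR adjusted p = 0.000124, the 99th smallest p of 16477 genes). In the knockout it was 19.1-fold (log2 fold change 4.26, SE 0.35, edgeR adjusted p = 5.593e-05, the 50th smallest). Without replicate 3 of wild-type endothelium, the Ehd3 log2 fold change in wild type was 3.62, with an edgeR adjusted p of 0.000599. These 2 comparisons called 2 of the 8 genes each, Ehd3 and Ehd4, both higher in endothelium. Among all genes tested, 8.99% were called in wild type (4.26% higher in endothelium and 4.73% lower) and 10.4% in the knockout (4.28% higher and 6.09% lower). An unadjusted p under 0.05 was reached by 3 of the 8 genes in wild type (Ehd2 besides these) and by 2 in the knockout, beside 19.6% and 22.9% of all genes. Of the 5 tubule markers, 0 were called in wild type and 1 in the knockout, Epcam, lower in endothelium at -1.65 (edgeR adjusted p = 0.00424), and their part in these ratios was not tested. In bulk libraries such as these, a smaller share of cells that make a gene and less RNA per cell cannot be told apart.

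Ehd4, which acts at early endosomes, lies on the minus strand of chromosome 2 from 120089175 to 120154606. It stood at 580 and 549.9 CPM in wild-type endothelium, 623 and 464 CPM in knockout endothelium, 246 and 190 CPM in wild-type podocytes, and 170 and 154 CPM in knockout podocytes. The endothelial libraries were again all above the podocyte libraries, and the knockout podocyte libraries were again both below the wild-type ones. The ratio was 2.59-fold in wild type (log2 fold change 1.37, SE 0.25, edgeR adjusted p = 0.00507) and 3.35-fold in the knockout (log2 fold change 1.74, SE 0.25, edgeR adjusted p = 0.00144). In wild type the Ehd4 log2 fold change was 1.41 without replicate 3 of wild-type endothelium (edgeR adjusted p = 0.0249) and 1.20 without replicate 3 of wild-type podocytes, where it missed the threshold (edgeR adjusted p = 0.0687).

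**Figure D1:**
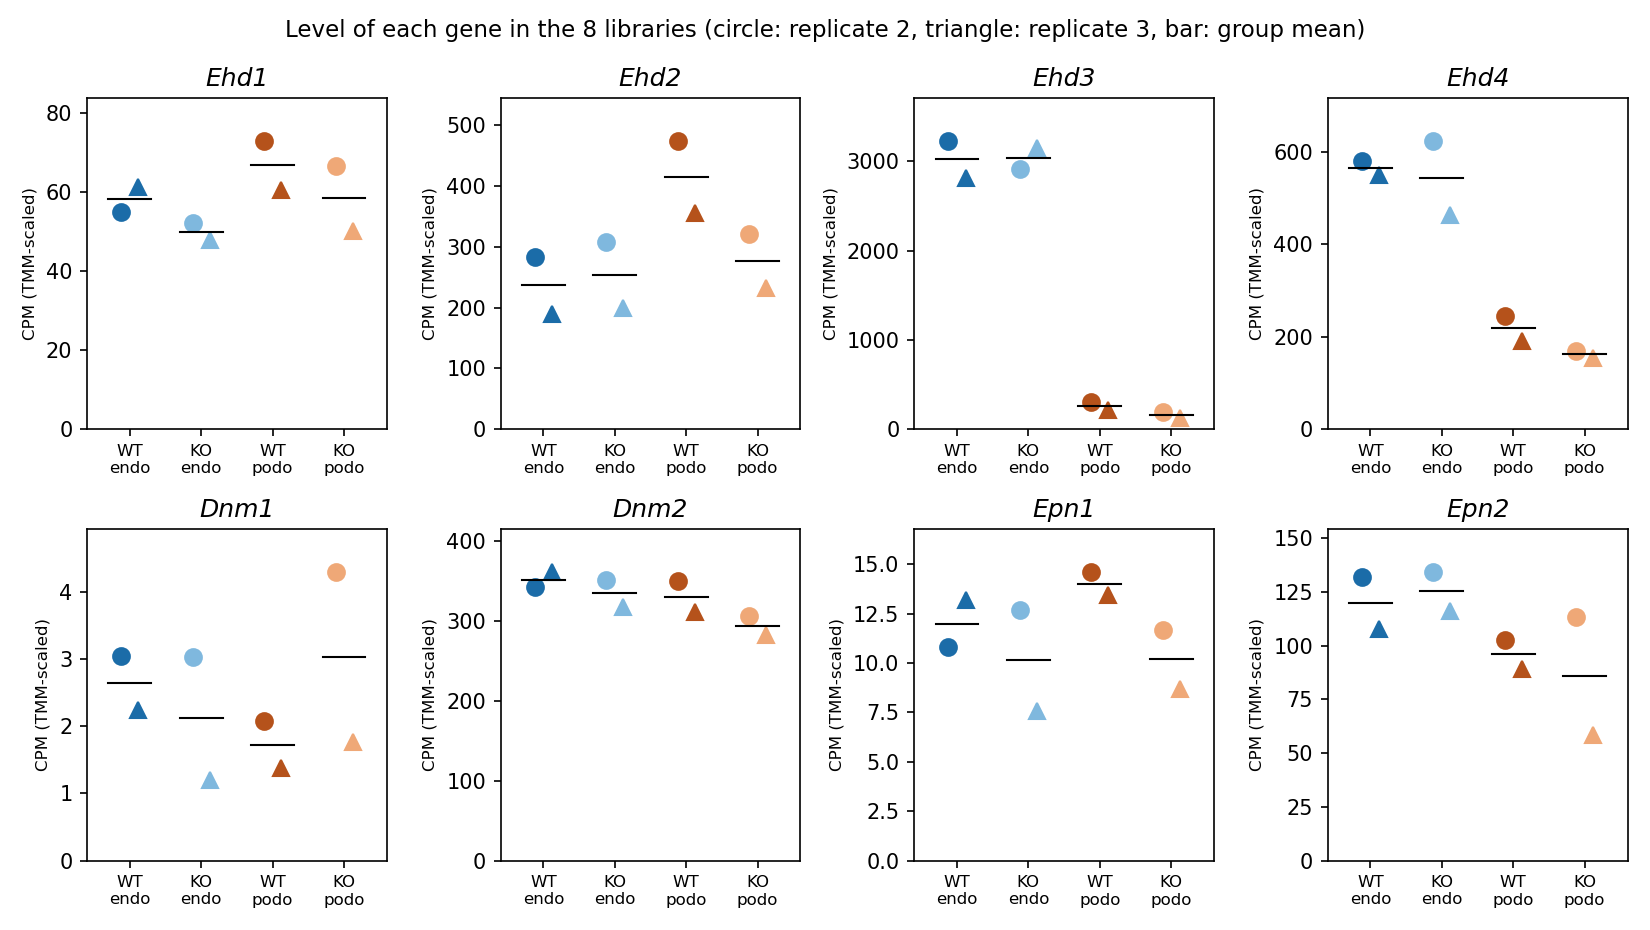
Level of each of the 8 genes in every library, in CPM on a linear axis from 0, with circles for replicate 2, triangles for replicate 3 and a bar at the group mean (WT is wild type, KO is knockout). For Ehd3 the endothelial libraries lie between 2815 and 3224 and the podocyte libraries between 125 and 307.

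The DNA before the start of Ehd3, Ehd4 and Ehd2 is shown because the first and second were called higher in endothelium and the third, Ehd2, was not called. RefSeq promoters of GRCm38.p6 were found for 7 of the 8 genes, and Ehd1 had no entry. The RefSeq start of Ehd3 lies inside the GENCODE interval given above, so its window does too. Only bases outside coding transcripts of GENCODE are printed, 5′ to 3′ on the gene's strand, with capitals for the ETS core GGAAG or its reverse complement CTTCC. ETS factors such as Erg are known regulators of endothelial genes.
Ehd3, chr17:73804591-73804840, plus strand: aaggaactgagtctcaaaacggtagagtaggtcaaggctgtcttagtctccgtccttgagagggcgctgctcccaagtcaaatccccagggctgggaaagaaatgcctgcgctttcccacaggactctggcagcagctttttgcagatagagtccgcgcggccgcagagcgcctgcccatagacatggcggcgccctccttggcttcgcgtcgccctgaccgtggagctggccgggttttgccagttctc
Ehd4, chr2:120154607-120154825, minus strand: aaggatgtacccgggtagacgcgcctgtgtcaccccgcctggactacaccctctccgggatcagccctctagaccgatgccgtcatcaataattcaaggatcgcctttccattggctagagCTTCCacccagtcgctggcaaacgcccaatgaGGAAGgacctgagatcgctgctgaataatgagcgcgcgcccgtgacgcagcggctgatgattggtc
Ehd2, chr7:15967568-15967785, minus strand: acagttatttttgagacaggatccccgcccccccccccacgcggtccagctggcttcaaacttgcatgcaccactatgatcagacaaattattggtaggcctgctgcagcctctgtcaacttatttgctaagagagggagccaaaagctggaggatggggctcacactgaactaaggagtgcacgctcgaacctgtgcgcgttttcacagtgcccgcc

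The ETS core, searched on both strands of the 250 bases before each start, matched 0 times for Ehd3, 2 times for Ehd4 and 0 times for Ehd2. It was present for 3 of the 7 genes (Ehd4, Dnm2 and Epn1) and in 64.1% of 32851 promoter windows of the same length. The box CACCC, named for KLF and SP factors, matched Ehd4 3 times and neither Ehd3 nor Ehd2. It was present for 3 of the 7 genes (Ehd4, Dnm1 and Epn1) and in 52% of all windows. The core GGGGGCG, named for WT1 and EGR factors, matched Ehd2 2 times and Ehd4 1 time, and was present in 14.8% of all windows. In Ehd4 one CTTCC overlaps a CACCC box. A match is only a run of letters, and no match says only that these letters are not in the window.

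Ehd2, the EHD protein of caveolae, lies on the minus strand of chromosome 7 from 15946958 to 15967567. Its level was 283 and 190 CPM in wild-type endothelium, 308 and 199 CPM in knockout endothelium, 474 and 356 CPM in wild-type podocytes, and 321 and 233 CPM in knockout podocytes. Both wild-type endothelial libraries lay below both wild-type podocyte libraries, and in the knockout the groups overlapped. The log2 fold change of endothelium against podocytes was -0.81 in wild type (SE 0.31, 95% interval -1.50 to -0.12, unadjusted p = 0.0249, edgeR adjusted p = 0.168). It was -0.13 in the knockout (95% interval -0.81 to 0.56, edgeR adjusted p = 0.855). With 1 library left out, the Ehd2 value in wild type ran from -1.13 to -0.55, the latter without replicate 3 of wild-type endothelium.

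Ehd1, which drives return of receptors from the recycling compartment to the surface, lies on the plus strand of chromosome 19 from 6276725 to 6300096. It was measured at 55.0 and 61.2 CPM in wild-type endothelium, 52.2 and 47.8 CPM in knockout endothelium, 72.8 and 60.6 CPM in wild-type podocytes, and 66.7 and 50.1 CPM in knockout podocytes. The cell types overlapped in both genotypes. Its log2 fold change of endothelium against podocytes was -0.20 in wild type (95% interval -0.71 to 0.31) and -0.22 in the knockout (95% interval -0.73 to 0.29), and edgeR's adjusted p was 0.738 and 0.628.

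Levels of different genes were set side by side as CPM per kilobase of the longest coding transcript. On that scale Ehd3 stood at 825 ± 79.0 (SD, n = 2) in wild-type endothelium, Ehd4 at 151 ± 5.70, Ehd2 at 46.2 ± 12.8 and Ehd1 at 17.3 ± 1.31. The same order held in both endothelial groups. In wild-type podocytes Ehd2 came first at 81.0 ± 16.2, followed by Ehd3 at 71.5 ± 17.4, Ehd4 at 58.4 ± 10.5 and Ehd1 at 19.9 ± 2.58. Neighbours among the first 3 there differed by less than the larger of their SDs, although Ehd2 was first within each of the 4 podocyte libraries. In knockout podocytes Ehd2 was at 54.1 ± 12.1, with Ehd3 at 43.4 ± 13.2 and Ehd4 at 43.5 ± 2.98. Ehd4 lay above Ehd3 in one of those libraries, replicate 3, at 41.4 against 34.1 CPM per kilobase.

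Taken as a share of the EHD family's summed length-scaled level, Ehd3 made up 79.3% ± 0.258 in wild-type and 79.8% ± 4.40 in knockout endothelium, against 30.8% ± 1.32 in wild-type and 27.1% ± 2.89 in knockout podocytes (SD, n = 2 each). Ehd2 held 4.40% and 4.76% of the family in wild-type and knockout endothelium, and 35.1% and 34.1% in the podocyte groups. The share of Ehd4 was 14.6% and 14.0% in endothelium and 25.4% and 27.8% in podocytes. The family sum was 1040 ± 96.3 CPM per kilobase in wild-type endothelium and 231 ± 46.7 in wild-type podocytes, with knockout groups at 1039 ± 2.06 and 158 ± 31.8. The shares depend on the length chosen: with all exons of a gene joined, Ehd3 held 69.4% in wild-type endothelium and 20.5% in wild-type podocytes. Ehd4 then stood above Ehd3 in wild-type podocytes, at 28.2%, so the order of these genes turned with the length there. In knockout podocytes the mean of Ehd4 was slightly above that of Ehd3 by the coding transcript, at 27.8% against 27.1%. With all exons joined it was at 30.4% against 17.8% in that group.

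**Figure D2:**
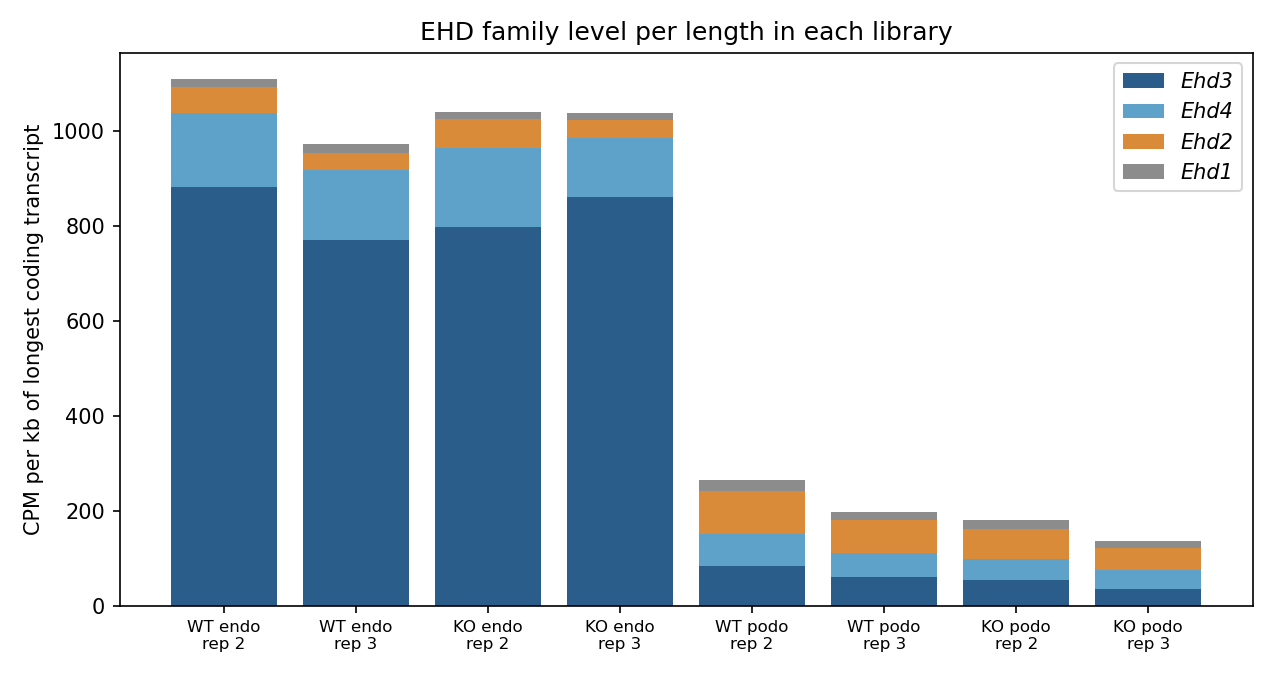
Stacked bars of the 4 EHD genes in each library, in CPM per kilobase of the longest coding transcript. Ehd3 fills most of every endothelial bar (76.7% to 82.9%), and the podocyte bars are shorter and split among Ehd2, Ehd3 and Ehd4.

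The podocyte level of Ehd3 was set beside that of the endothelial markers. Mean Ehd3 in wild-type podocytes was 8.66% of its level in wild-type endothelium (7.17% and 10.2% in the 2 libraries), and the 9 markers there ran from 2.96% for Egfl7 to 16.2% for Erg. In the knockout Ehd3 was at 5.24% (4.11% and 6.36%), within a marker range of 2.73% to 19.0%. Cdh5, the cadherin of endothelial junctions, was at 8.72% and 4.91% in wild type and knockout. The Ehd3 percentage thus lay inside the markers' range in both genotypes. Ehd4 was at 38.6% in wild type and 29.9% in the knockout, above the mean percentage of all 9 markers in both. The part of endothelial RNA in the podocyte values was not tested.

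**Figure D3:**
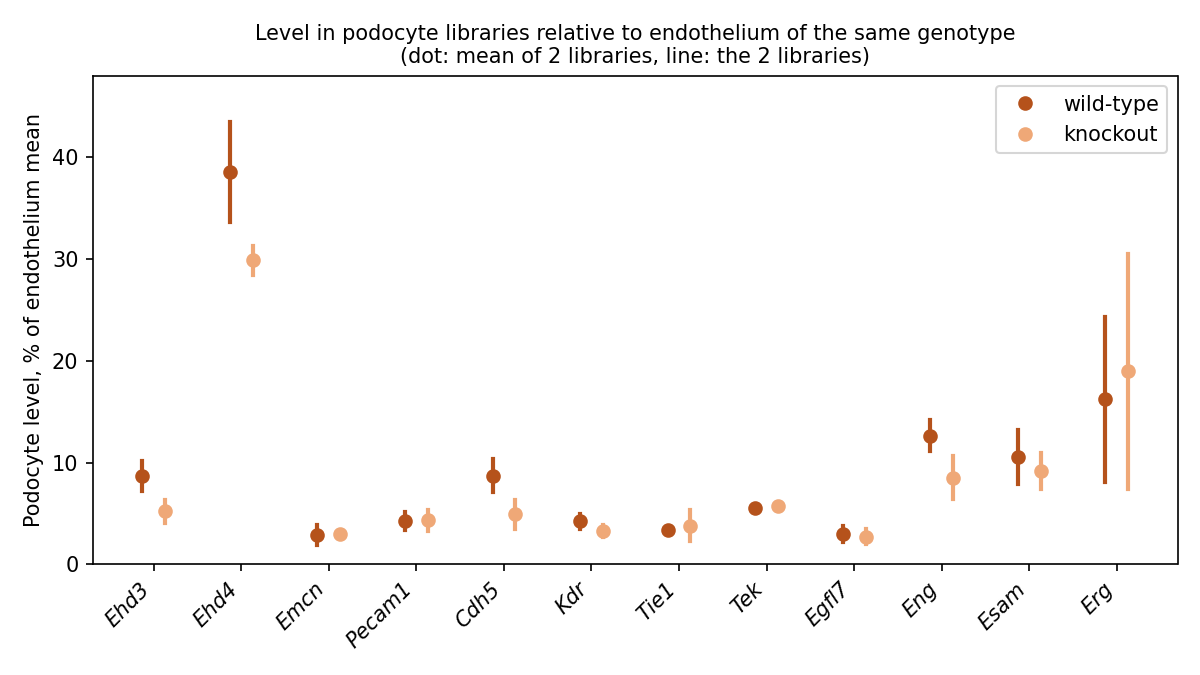
Level in podocyte libraries as a percent of the mean endothelial level of the same genotype, for Ehd3, Ehd4, Emcn and the 9 endothelial markers, with a dot at the mean and a line between the 2 libraries. Ehd3 lies among the markers, and the Ehd4 means (29.9% and 38.6%) lie above the marker means, although the line of Erg in the knockout reaches the Ehd4 value.

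The endothelial level of Ehd2, which was not called between cell types, was set beside the podocyte markers in the same way. Its mean in wild-type endothelium was 57.0% of that in wild-type podocytes (45.8% and 68.2% in the 2 libraries), and in the knockout 91.5% (71.8% and 111%). The sign of the Ehd2 value between the knockout cell types turned in 4 of 13 alternatives, where it reached up to 0.17. The 4 podocyte markers stood at 7.03% (Synpo) to 16.7% (Podxl) of their podocyte level in wild-type endothelium, and at 7.33% (Cdkn1c) to 26.0% (Podxl) in knockout endothelium, so Ehd2 lay above all 4 in both genotypes.

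The dynamins differed from each other in level and not detectably between groups. Dnm2, the widely expressed dynamin, lies on the plus strand of chromosome 9 from 21424908 to 21507759. It was at 343 and 361 CPM in wild-type endothelium, 352 and 318 CPM in knockout endothelium, 349 and 311 CPM in wild-type podocytes, and 306 and 282 CPM in knockout podocytes. All 8 libraries fell within a narrow band, the narrowest of the 8 genes (SD of log2 CPM over the libraries 0.12). Its log2 fold change of endothelium against podocytes was 0.09 in wild type (95% interval -0.38 to 0.57) and 0.19 in the knockout (95% interval -0.29 to 0.66), with edgeR adjusted p of 0.888 and 0.667. Of the Dnm2 exons, 207 bases (3.88%) overlap the opposite-strand gene Tmed1, and whether counting used strand is not given in the sources used here. None of the other 7 genes shares exon bases with another annotated gene.

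Dnm1, the neuronal dynamin, lies on the minus strand of chromosome 2 from 32308471 to 32353338 and was close to the lower limit of the data. Its raw counts were 40 and 31 in wild-type endothelium, 43 and 14 in knockout endothelium, 32 and 19 in wild-type podocytes, and 69 and 24 in knockout podocytes, which is 1.20 to 4.29 CPM. The knockout libraries within a cell type lay further apart than the group means did. The Dnm1 log2 fold change of endothelium against podocytes was 0.61 in wild type (95% interval -0.90 to 2.11) and -0.51 in the knockout (95% interval -2.00 to 0.98), and edgeR's adjusted p was 0.729 and 0.720. The first interval is wide enough to hold both no difference and a difference as large as that of Ehd4 (1.37). Neural markers summed to 115 CPM in both wild-type endothelial libraries and to 37.5 and 41.7 CPM in wild-type podocytes, and in the knockout to 85.5 and 96.1 CPM against 27.5 and 35.6 CPM. Members of that list went both ways: in wild type Stmn2 was higher in endothelium by 4.30 on the log2 scale and Syn1 was lower, at -3.33 (edgeR adjusted p = 7.59e-05 and 0.0322). Their part in the Dnm1 counts was not tested. Per kilobase, Dnm2 made up 98.9% to 99.7% of the summed level of the 2 dynamins in every library. Dnm3, the remaining dynamin, was 1.28 higher on the log2 scale in wild-type endothelium than in podocytes and missed the threshold (SE 0.37, edgeR adjusted p = 0.0601), and in the knockout it was at 0.50 (SE 0.37, edgeR adjusted p = 0.470).

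The epsins did not pass the test in any comparison either. Epn2 lies on the minus strand of chromosome 11 from 61517249 to 61579687. Its level was 132 and 108 CPM in wild-type endothelium, 134 and 116 CPM in knockout endothelium, 103 and 89.0 CPM in wild-type podocytes, and 113 and 58.4 CPM in knockout podocytes. Endothelial libraries lay above podocyte libraries within each genotype. The Epn2 log2 fold change was 0.32 in wild type (95% interval -0.34 to 0.98, edgeR adjusted p = 0.657) and 0.54 in the knockout (95% interval -0.12 to 1.20, edgeR adjusted p = 0.320). With 1 library left out, the Epn2 value in the knockout ran from 0.14 to 1.09, the latter without replicate 2 of knockout podocytes. That fit leaves 1 library of knockout podocytes, so the other groups supply the spread.

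Epn1 lies on the plus strand of chromosome 7 from 5080235 to 5098178 and was measured at 10.8 and 13.2 CPM in wild-type endothelium, 12.7 and 7.57 CPM in knockout endothelium, 14.6 and 13.4 CPM in wild-type podocytes, and 11.7 and 8.70 CPM in knockout podocytes. Wild-type endothelium lay just below wild-type podocytes, and the knockout groups overlapped. Its log2 fold change of endothelium against podocytes was -0.23 in wild type (95% interval -1.02 to 0.57) and -0.01 in the knockout (95% interval -0.81 to 0.79), with edgeR adjusted p of 0.825 and 0.993. Per kilobase, Epn2 made up 85.0% of the 2 epsins in wild-type endothelium, 87.8% in knockout endothelium, 79.7% in wild-type podocytes and 82.1% in knockout podocytes, with SDs of 0.698 to 3.79 percentage points (n = 2 each).

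Over the 8 genes, 6 had wild-type endothelial and podocyte libraries that did not overlap, 4 with endothelium above (Ehd3, Ehd4, Dnm1 and Epn2) and 2 with it below (Ehd2 and Epn1). Among all genes tested, 46.9% did not overlap there, 21.2% with endothelium above and 25.7% with it below. In the knockout it was 4 of 8, all with endothelium above (Ehd3, Ehd4, Dnm2 and Epn2), beside 55.0% of all genes, 27.3% above and 27.8% below. Without replicate 3 of wild-type endothelium, the wild-type log2 fold changes of the genes not yet given that way were -0.28 for Ehd1, 0.81 for Dnm1, 0.05 for Dnm2, -0.38 for Epn1 and 0.46 for Epn2, and edgeR called none of these 5. The median log2 fold change of the 8 genes with all libraries was 0.21 in wild type and 0.09 in the knockout, against -0.01 for all genes in both.

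Between knockout and wild-type endothelium, no difference in the 8 genes was detectable. No gene of the 8 passed edgeR's test of knockout against wild-type endothelium, the smallest adjusted p being 0.778 (Ehd1), and 0 had an unadjusted p under 0.05. Of all genes, 0.00607% passed (1 gene, Emcn) and 5.49% had an unadjusted p under 0.05. DESeq2 and limma voom also called 0 of the 8. The Ehd3 log2 fold change was 0.01 (SE 0.30, 95% interval -0.67 to 0.68), so a change of Ehd3 as large as 1 log2 unit lay outside the interval, and without replicate 3 of wild-type endothelium it was -0.10. The Ehd4 value was -0.06 (95% interval -0.60 to 0.49), that of Ehd2 0.10 (-0.58 to 0.78) and that of Ehd1 -0.22 (-0.73 to 0.29). For the scission and coat proteins the values were -0.07 for Dnm2 (95% interval -0.55 to 0.40), 0.06 for Epn2 (-0.59 to 0.72), -0.24 for Epn1 (-1.04 to 0.56) and -0.31 for Dnm1 (-1.81 to 1.19). Without replicate 3 of wild-type endothelium the signs of Ehd2 (-0.17) and Epn2 (-0.08) turned too. The others were then -0.15 for Ehd1, -0.10 for Ehd4, -0.52 for Dnm1, -0.04 for Dnm2 and -0.10 for Epn1, and 0 of the 8 were called. Tubule markers in the same comparison had a median of -0.94, from -1.64 (Aqp2) to 0.23 (Cubn), with 3 of 5 lower. Mural and mesangial markers had a median of 0.57, from -0.54 (Gata3) to 2.15 (Ren1), with 2 of 4 lower. The 4 podocyte markers had a median of -0.49, from -1.13 (Cdkn1c) to -0.02 (Podxl). The 9 endothelial markers had a median of 0.10, from -0.19 (Tek) to 0.32 (Cdh5). None of these markers was called, and their part in the values of the 8 genes was not tested. Ehd1 was the single gene of the 8 whose 2 knockout libraries both lay below the 2 wild-type ones, beside 19.7% of all genes in that direction, 24.8% in the other and 44.5% in either.

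In podocytes, too, edgeR called 0 of the 8 genes between genotypes, beside 0.00607% of all genes, and DESeq2 and limma voom called 0. One of the 8, Ehd3, had an unadjusted p under 0.05, as did 4.43% of all genes. Its level in knockout podocytes was 159 ± 48.3 CPM against 261 ± 63.8 CPM in wild type (SD, n = 2 each), a log2 fold change of -0.72 (SE 0.31, 95% interval -1.40 to -0.04, unadjusted p = 0.0402, edgeR adjusted p = 0.978). The Ehd2 log2 fold change was -0.58 (95% interval -1.27 to 0.10), that of Epn1 -0.46 (-1.25 to 0.34) and that of Ehd4 -0.43 (-0.97 to 0.12). Ehd1, Dnm2 and Epn2 had values of -0.19, -0.17 and -0.16, and Dnm1 had 0.81 (95% interval -0.69 to 2.31). The knockout libraries lay below the wild-type ones without overlap for 5 of the 8 genes (Ehd2, Ehd3, Ehd4, Dnm2 and Epn1), beside 16.0% of all genes in that direction. None of the 8 lay above without overlap, as 15.1% of all genes did, and 31.2% of all genes did not overlap in either direction. The median of the 8 was -0.31 and that of all genes 0.02. The 4 podocyte markers had log2 fold changes of -0.55 to -0.75 in the same comparison and the 9 endothelial markers a median of -0.02, from -0.50 (Cdh5) to 0.43 (Tie1), with 5 below 0 and 4 above. Mural and mesangial markers there had a median of 0.30, from -0.53 (Gata3) to 1.62 (Rgs5), with 2 of 4 below 0. Tubule markers had a median of 0.46, from -0.22 (Umod) to 0.69 (Lrp2), with 1 of 5 below 0. The medians were -0.86 for 3 immune markers and -0.25 for 4 neural ones. No marker of these lists was called. The part of the cell mix in the podocyte values was not tested.

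**Figure D4:**
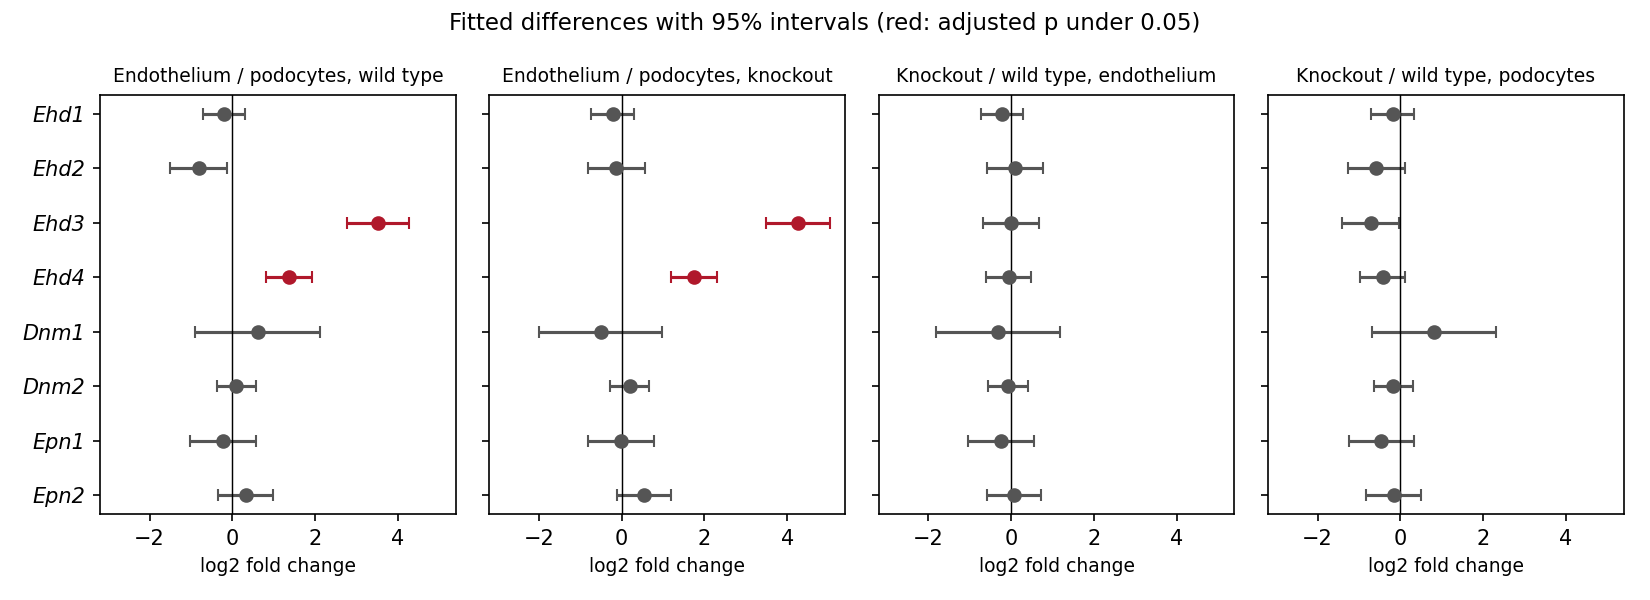
Log2 fold change of each gene with its 95% interval in 4 comparisons, the cell types within each genotype and the genotypes within each cell type, with red for an edgeR adjusted p under 0.05. Red points are Ehd3 and Ehd4 in the cell-type comparisons, and the intervals of Dnm1 are the widest.

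The genotype difference was also averaged over the cell types and compared between them. Averaged, 0 of the 8 were called by edgeR, beside 0.00607% of all genes, and the smallest adjusted p was 0.578, for Ehd3 at -0.36 (95% interval -0.84 to 0.12). None had an unadjusted p under 0.05, as 8.59% of all genes did, and DESeq2 and limma voom called 0. The difference between the genotype effects in endothelium and podocytes was 0.73 for Ehd3 (SE 0.43, 95% interval -0.23 to 1.68), 0.68 for Ehd2 (-0.28 to 1.65) and 0.37 for Ehd4 (-0.40 to 1.14). It was not called for any of the 8 by edgeR (adjusted p of 1 for each), DESeq2 or limma voom, and 0.00% of all genes were called by edgeR. None of the 8 had an unadjusted p under 0.05 there, as 2.60% of all genes did. Without replicate 3 of wild-type endothelium the averaged values ran from -0.41 (Ehd3) to 0.14 (Dnm1) and the differences from -1.33 (Dnm1) to 0.63 (Ehd3), and 0 of the 8 were called in either. The ratios of 11.6 and 19.1 for Ehd3 in wild type and knockout are therefore not shown to differ. These comparisons reuse the same 8 libraries, so their values are not independent of each other.

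Around the 8 genes, the rest of the uptake pathway was read from 5 lists. Their counts stand beside the 8.99% of all genes called between the cell types in wild type (4.26% higher in endothelium and 4.73% lower) and the 10.4% in the knockout (4.28% higher and 6.09% lower), and no list was tested against that share. Of the clathrin coat and its adaptors, 19 of 28 genes were measured. Clathrin itself and the AP-2 subunits were not analysed here. In wild type 1 of the 19 was called higher in endothelium and 3 lower, with a median of -0.53. Numb, an adaptor that also restrains Notch signalling, was higher by 1.86 on the log2 scale (SE 0.26, edgeR adjusted p = 0.000932), while the third epsin, Epn3, was lower with a log2 fold change of -1.85 (SE 0.31, edgeR adjusted p = 0.00306). Ston2 and Hip1r were also lower, at -1.17 and -1.01 (edgeR adjusted p = 0.0306 and 0.0418). In the knockout 2 were higher and 4 lower, with a median of -0.43. They included Epn3 at -2.47, Numb at 1.49, Hip1 at 1.36 and Hip1r at -1.14 (edgeR adjusted p = 0.000676, 0.00367, 0.00710 and 0.0222). The wild-type count of 4 was 2 without either wild-type podocyte library, and the knockout count of 6 was 2 without replicate 2 and 3 without replicate 3 of knockout endothelium. With library size as the only scaling it was 3, of which 2 were higher and 1 lower. Epn3 passed in both genotypes and Epn1 and Epn2 in neither, and the differences between these genes were not tested.

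All 21 partners of scission and uncoating were measured. In wild type 1 was higher in endothelium, Bin1 at 1.08 (edgeR adjusted p = 0.0478), an amphiphysin-family protein that bends membrane. That call was lost without any 1 of the 4 wild-type libraries and with library size as the only scaling. The 3 lower ones were Amph, which recruits dynamin to the vesicle neck, at -2.23, Myo1e, a myosin of podocyte foot processes, at -1.55, and Wasl, an activator of actin branching, at -1.19 (edgeR adjusted p = 0.00124, 0.00579 and 0.00673). The median of the list was -0.19. With DESeq2, limma voom or the replicate block, 2 genes of the list were called higher in wild-type endothelium. In the knockout 0 were higher and 5 lower, with a median of -0.52, and the 4 of smallest p were Pacsin3 at -1.60, Amph at -1.22, Wasl at -0.89 and Snx18 at -2.48 (edgeR adjusted p = 0.0104, 0.0305, 0.0309 and 0.0400). The knockout count of this list fell to 0 without replicate 2 of knockout podocytes and to 1 without either knockout endothelial library. The wild-type count of 4 fell to 1 without replicate 3 of wild-type endothelium or replicate 2 of wild-type podocytes.

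Caveolar genes, whose structures hold EHD2 at their neck, were tested for 5 of 7, and Cav3 did not pass the low-count filter. In wild type Cavin2 was higher in endothelium by 3.05 on the log2 scale, Cavin3 by 2.48 and Cav2 by 1.21, and Cavin1 was lower with a log2 fold change of -1.44 (edgeR adjusted p = 0.000168, 0.000337, 0.0491 and 0.00301). The knockout had Cavin2 at 2.87, Cavin3 at 2.43 and Cavin1 at -0.98 (edgeR adjusted p = 0.000237, 0.000439 and 0.0242). The medians of the list were 1.41 and 0.96. The higher calls in wild type numbered 2 instead of 3 without any 1 of the 4 wild-type libraries. The lower call in the knockout, Cavin1, was lost without any 1 of the 4 knockout libraries and with library size as the only scaling. Cav1 was not analysed here.

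Of the early and recycling endosome list, where EHD proteins act, 14 of 27 genes were measured. Rab11fip1, an effector of recycling, was the single one called in wild type, at -1.03 (edgeR adjusted p = 0.0201), and the list's median was -0.15. In the knockout Rab11fip1 at -1.49 and Arf6, a GTPase of recycling, at -1.96 were called (edgeR adjusted p = 0.00267 and 0.0306), with a median of -0.43. The wild-type call was lost without replicate 2 of wild-type endothelium or of wild-type podocytes. The knockout count of 2 was 1 without either knockout endothelial library or replicate 2 of knockout podocytes, and 4 (1 higher and 3 lower) without replicate 3 of knockout podocytes. Of the receptors known as cargo, 5 of 6 were measured, the exception being the podocyte receptor Nphs1, and these 5, receptors of endothelium, were higher in endothelium in both genotypes. They were led by Kdr at 4.56 and Tek at 4.16 in wild type (edgeR adjusted p = 4.322e-05 and 3.106e-05), with list medians of 4.01 and 3.98. Between genotypes edgeR, DESeq2 and limma voom called 0 genes in each of the 5 lists, in either cell type, averaged or as a difference between cell types. At an unadjusted p under 0.05 the scission list had 5 of 21 genes in endothelium and 2 in podocytes, and the coat list had 1 of 19 in each. The caveolar list had 0 of 5 in endothelium and 1 in podocytes, and the endosome and cargo lists had 0 in both. Among all genes 5.49% reached it in endothelium and 4.43% in podocytes.

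Genes with the nearest profile were found by the root mean square difference of log2 CPM, centred on each gene's mean, over the 8 libraries and 10079 other genes (10080 for Dnm1). For Ehd3 they were Cdh5 (0.18), Grap (0.21) and Ldb2 (0.25), beside an SD of Ehd3's own profile of 2.12. For Ehd4 they were Ppm1f (0.09), Lims2 (0.12) and Casp8 (0.12), with an SD of 0.86. Ehd2 was nearest to Mxra8 (0.10), Jak1 (0.12) and Calu (0.14), with an SD of 0.44. Epn2 was nearest to Tfpi (0.08), an inhibitor of coagulation made by endothelium, then to Ubr7 (0.12) and Serinc3 (0.13). The flat genes had near neighbours that were also flat, such as Ssb (0.03) for Dnm2 and Vezf1 (0.05) for Ehd1. The nearest genes were Lcorl (0.08) for Epn1 and 9130008F23Rik (0.17) for Dnm1. The values describe these 8 libraries, which share the step between the cell types.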

How the data were processed

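RNA of the 8 sorted-cell libraries was made into TruSeq libraries, per the labels' protocols. Read counts by Entrez gene ID were deposited in 1 table, raw, per the file headers. The submitters' processing notes name mm10 and DESeq2, and the aligner, the counting tool and the use of strand are not given in the sources used here. Of 22533 gene lines, 5207 (23.11%) held fewer than 8 counts after a comma in the gene description and were not analysed here. In 3 columns these left empty cells, so those deposited counts were recorded as another kind of value for that reason alone. Lines without a symbol (617) stayed in the fit.

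The unchanged counts went into edgeR 4.0.16 (R 4.3.3): filterByExpr, TMM scaling, 1 mean per group over all 8 libraries, the quasi-likelihood F test, and Benjamini-Hochberg adjustment over 16477 genes at 0.05. The SE is the absolute log2 fold change over the root of F, and 95% intervals use the t quantile of the test's degrees of freedom. Log2 CPM used a prior count of 2. Library totals set the counting precision. Among genes above a minimum count, the 2 libraries of a group differed at an unadjusted binomial p under 0.05 for 54.2% to 69.3%. That test used totals without TMM scaling, so a shift in composition counts too, and no libraries were merged. DESeq2 1.42.0, limma voom 3.58.1, other scalings and filters, a replicate block and leaving out each library were alternatives. Positions and lengths came from GENCODE M21 (GRCm38), matched by gene symbol, and promoters from RefSeq. The code was tested on simulated data.

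The text names all 8 genes in every comparison, Emcn, up to 4 called genes of smallest p in each pathway list, and the 3 genes of nearest profile (mean of at least 5 CPM). Dnm3, single markers and the neighbours given for fewer than 3 ranks were chosen after their values were seen. The 8 genes and the lists were chosen with earlier results of these data known. Some genes of the marker lists are not reported here and were left out of the sums and counts.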

Additional observations from a re-analysis of the deposited data

How the results depend on the processing

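Over 80 alternative values of the 6 counts of the 8 genes called, 79 were taken as the same and 1 as lower. A count of 3 in place of 2, as with the replicate block in wild type, was taken as the same. The 80 values include those of the genotype counts, which were 0 in the main fit too. In wild-type endothelium against podocytes the count of 2 ranged from 1 to 2 when 1 library was left out, with 1 when replicate 3 of wild-type podocytes was missing, and in the knockout from 2 to 3. Ehd3 was called in 13 of 13 alternatives in each genotype, at 3.30 to 3.82 in wild type (adjusted p 1.024e-25 to 0.00306) and 3.97 to 4.60 in the knockout (adjusted p 1.435e-36 to 0.00144). Ehd4 was called in 12 of 13 in wild type, at 1.20 to 1.58 (adjusted p 3.042e-05 to 0.0687), and in 13 of 13 in the knockout, at 1.51 to 2.04 (adjusted p up to 0.0111). The genotype counts and the count for the difference between cell types stayed at 0 in each alternative run. Signs of uncalled values did turn: Ehd3 in knockout against wild-type endothelium ran from -0.10 to 0.32, with the other sign in 4 of 12.

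The labels do not say that a replicate number marks an animal. Deviations of same-numbered libraries correlated at -0.13 to 0.19 between groups across 16477 genes. With the replicate block the wild-type count was 3, adding Ehd2 (-0.83, edgeR adjusted p = 0.0168), and no other count of the 8 genes moved. With the podocyte numbers crossed, an alternative chosen after seeing the data, the block called 2 genes in each genotype.

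Scaling by library size alone moved the median of all genes the furthest in knockout against wild-type endothelium, from 0.01 to 0.33, and among all genes called in knockout endothelium against podocytes the share higher in endothelium was 60.6%, against 41.3% with TMM. DESeq2 called 10 and 12 of all genes between genotypes in endothelium and podocytes where edgeR called 1 in each. All genes called between cell types numbered 1481 in wild type (769 to 1085 with 1 library left out) and 1709 in the knockout (960 to 1809). The coat list's counts of 4 and 6 ran from 2 to 4 and 2 to 5 with 1 library left out, and reached 7 in both genotypes with the block. The scission list's knockout count of 5 was 1 with library size alone. With a mean of at least 5 CPM required, Dnm1 was not tested. Counts of 14 to 69 limit what Dnm1 can show.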

Other observations

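Ehd2, Ehd4, Dnm1 and Epn2 lay lower in the library numbered 3 than in the one numbered 2 in each of the 4 groups, 4 of the 8 genes beside 11.6% of all genes tested. For Ehd2 the log2 difference was -0.57 in wild-type endothelium, -0.63 in knockout endothelium, -0.41 in wild-type podocytes and -0.46 in knockout podocytes. For Epn2 it was -0.29, -0.20, -0.21 and -0.95 in the same order, for Ehd4 -0.08, -0.43, -0.37 and -0.14, and for Dnm1, at few counts, -0.42, -1.24, -0.54 and -1.21. The pattern was noticed in these values and was not tested, and the labels do not say what a number stands for.

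Coding sequences of the EHD genes were 71.2% to 80% identical, the closest pair being Ehd1 and Ehd3 and the most distant Ehd2 and Ehd4. Dnm1 and Dnm2 were 79% identical and Epn1 and Epn2 70.9%. No run of 50 bases was shared between any of the 8 genes. With other annotated genes, 2.84% of such runs were shared for Dnm2 (all with Tmed1) and 0.0615% for Ehd3.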
